A study of Mus musculus with 4 samples.

Results

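The miRNAs described here are those enriched in brain tissue. They were chosen by hairpin name, with any letter suffix ignored, and comprise every row of the miR-9, miR-124, miR-128, miR-132, miR-138, miR-139, miR-149, miR-218, miR-219a and miR-338 hairpins, with either arm. Of these 10 hairpins, 9 had a row, which gave 13 of the 389 mature miRNAs listed, and miR-132 had no row. A mature miRNA is the strand that is kept from the 5′ (5p) or 3′ (3p) side of its hairpin precursor.

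Small RNA was sequenced from exosome-enriched preparations of the culture supernatant of C8-D1A, an established mouse astrocyte line of cerebellar origin with the genotype WT. The control group, with 2 libraries, was kept at 37 °C, for 8 h according to the sample labels and for 2 h according to the culture methods. The heat stress group, also with 2 libraries, spent 2 h at 42 °C before 6 h of rewarming at 37 °C, and the series design describes the libraries of each group as biological replicates. The table gave 1 normalized value per miRNA and library. Each value was a whole multiple of 1 step of its library, and steps are called reads below, on the assumption that 1 step is 1 read. On miRNAs, control 1 then had 43675 reads, control 2 had 95020, heat-stressed library 1 had 100933 and heat-stressed library 2 had 63338. A value of 0 then allows up to 3 reads, or a normalized value of 4.06 and 2.35 in controls 1 and 2 and of 2.37 and 3.00 in heat-stressed libraries 1 and 2, which covers counting error only. In bulk preparations of this kind, fewer vesicles that carry a miRNA and less of it per vesicle cannot be told apart.

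A miRNA guides a silencing complex to messenger RNAs, and pairing is led by its seed, the stretch from base 2 to base 8. In the brain, miR-124 and miR-9 are known for promoting the neuronal fate, miR-128 for limiting the excitability of neurons, miR-132 for following neuronal activity, miR-138 for shaping dendritic spines and miR-218 for its enrichment in motor neurons. MiR-219a and miR-338 are known for driving the maturation of oligodendrocytes, the myelinating glia.

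Of the 13 brain-enriched miRNAs, 7 were above 0 in all 4 libraries and 11 reached the mean value of at least 1 that was required for testing. Their levels differed widely, from mmu-miR-128-3p, which had rank 28 among all 389 miRNAs by mean value, to miR-338-5p at rank 361. The moderated test of limma was applied to log2(value + 1) over all 313 miRNAs that passed this filter, and the threshold was an unadjusted p under 0.05 together with a change above 2-fold. None of the 11 brain-enriched miRNAs tested passed it in either direction with limma, against 14 higher (4.47%) and 9 lower (2.88%) of all 313, and none of the 11 had an unadjusted p under 0.05. In edgeR, added after the data had been seen, 2 of the 11 passed this threshold as lower, against 3.19% of the 313, and 0 as higher, against 1.92%. In limma 0 of the 313 had a Benjamini-Hochberg adjusted p under 0.05, and 23 had an unadjusted p under 0.05, while edgeR gave 1 and DESeq2 gave 0 with an adjusted p under 0.05. In 4 of the 11 both heat-stressed libraries lay below both control libraries, against 11.5% of all miRNAs tested, and in 0 of the 11 both lay above, against 16.0%. These 4 were mmu-miR-128-3p, mmu-miR-139-3p, mmu-miR-149-3p and mmu-miR-218-5p. The log2 change was below 0 in 8 of the 11, against 148 of all 313 (47.3%), and its median was -0.34 against 0.12. This median was -0.34 also when miR-138-5p, which was at 0 in both heat-stressed libraries, was set at its bound, which lies below the median as its fitted value does. With single libraries left out, the median of the 11 ran from -1.06 (without control 2) to -0.07 (without control 1). For any one miRNA, 2 libraries a group limit the two-sided exact permutation p to 0.333 or more.

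**Figure D1:**
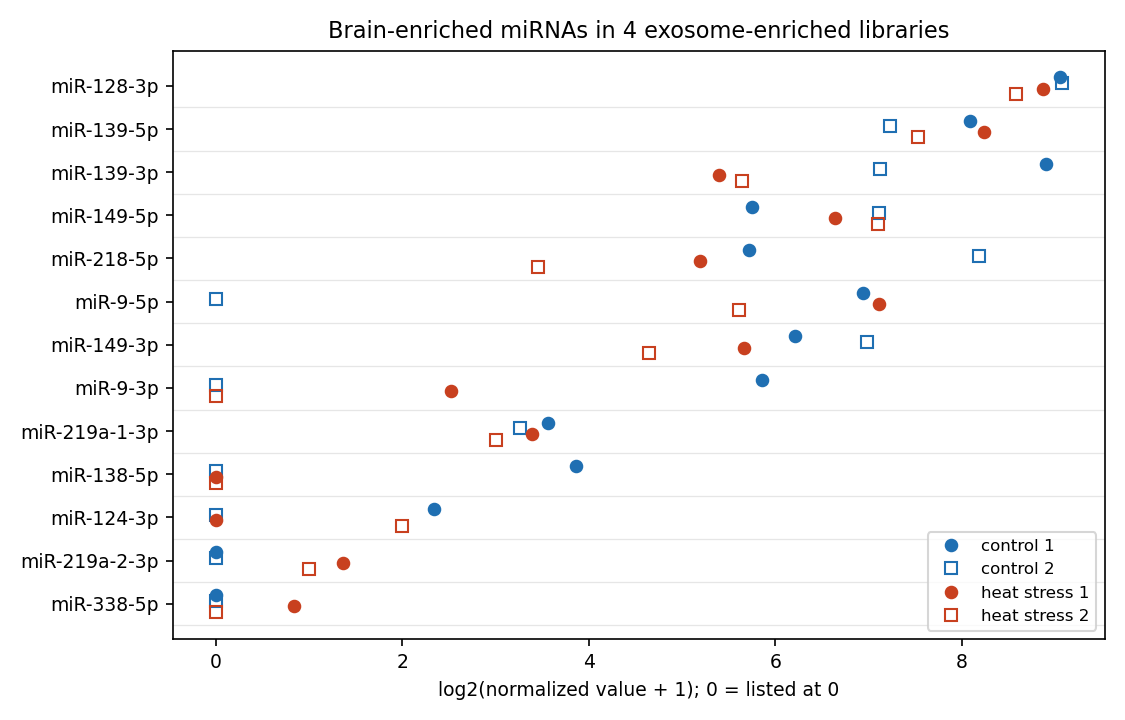
Normalized values of the 13 brain-enriched miRNAs in the 4 libraries, as log2(value + 1) on the horizontal axis, with miRNAs ordered by mean value. Blue marks are the control libraries and red marks the heat-stressed libraries, filled for replicate 1 and open for replicate 2, and a mark at 0 is a miRNA listed at 0. The red marks of miR-139-3p lie at 41.1 and 49.0 on the original scale and the blue marks at 477 and 138.5, whereas the colours of miR-139-5p are mixed.

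Mmu-miR-128-3p, a miRNA of mature neurons, was the most abundant of the 13 in each library. Its values were 531 and 540 in controls 1 and 2 and 465 and 382 in heat-stressed libraries 1 and 2, or 392, 690, 589 and 382 reads. Both heat stress values lay below both control values, but they were 1.22-fold apart from each other and the group means differed by 1.26-fold. The log2 change was -0.34 (standard error 0.834, limma's Benjamini-Hochberg adjusted p = 0.971), which is within its error. Mmu-miR-128-3p made up 31.9% and 38.9% of the summed value of the 13 in controls 1 and 2 and 40.6% and 45.3% in heat-stressed libraries 1 and 2. It can derive from Mir128-1, in an intron of R3hdm1, or from Mir128-2, in an intron of Arpp21, since both hairpins give the same mature strand.

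The miR-139 hairpin lies in an intron of Pde2a, which encodes a phosphodiesterase, and both of its arms were well measured. The 3p arm, mmu-miR-139-3p, had values of 477 and 138.5 in controls 1 and 2 and of 41.1 and 49.0 in heat-stressed libraries 1 and 2, or 352, 177, 52 and 49 reads. The heat-stressed libraries were close to each other and both below the control libraries, which were 3.44-fold apart. The control mean was 308 ± 239 (SD, n = 2) and the heat stress mean 45.1 ± 5.62 (SD, n = 2), a 6.83-fold difference. In limma the log2 change was -2.49 (standard error 1.01, 95% confidence interval -5.09 to 0.106), with an unadjusted p of 0.0568 and a Benjamini-Hochberg adjusted p of 0.686. The exact permutation p was 0.333, the smallest possible. The 5p arm, miR-139-5p, which is known for targeting the receptor Igf1r, had values of 271 and 148.6 in controls 1 and 2 and of 300 and 184 in heat-stressed libraries 1 and 2. Its groups overlapped, each group spanned more than the difference between the means, and its log2 change was 0.23 (standard error 0.902), which turned to -0.20 without control 2 and -0.12 without heat-stressed library 1.

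A count model was added after the data had been seen, with the multiples taken as reads. In edgeR's quasi-likelihood test mmu-miR-139-3p ranked 1 of 313 by p, with a log2 change of -2.77 and a Benjamini-Hochberg adjusted p of 0.00868, lower in both heat-stressed libraries than in either control library. It was the only miRNA of the 313 with an adjusted p under 0.05 in that test (0.319%, lower). The size of this difference depended on control 1. Without it, the log2 change was -1.62, and edgeR's Benjamini-Hochberg adjusted p was 0.985. The call was also lost without heat-stressed library 1 (log2 change -2.64, edgeR's Benjamini-Hochberg adjusted p = 0.257) and without heat-stressed library 2 (-2.90, 0.119), where the log2 change was about as large as with all 4 libraries. Without control 2 the log2 change was -3.40 and edgeR's Benjamini-Hochberg adjusted p was 0.00117. Among the count models tried with all 4 libraries, the Benjamini-Hochberg adjusted p ran from 0.00317 (edgeR with no filter) to 0.960 (edgeR with the replicate number as a block), with 0.0546 in DESeq2's Wald test. The log2 change was -2.52 with the block and -2.77 in DESeq2.

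The miR-149 hairpin lies in an intron of Gpc1, which encodes a glypican of the cell surface. Its 3p arm, mmu-miR-149-3p, had values of 73.2 and 125 in controls 1 and 2 and of 49.8 and 24.0 in heat-stressed libraries 1 and 2, or 54, 160, 63 and 24 reads. Both heat-stressed libraries were below both control libraries, and the means differed by 2.69-fold. The log2 change was -1.44 (standard error 0.924, limma's Benjamini-Hochberg adjusted p = 0.686), and leaving out single libraries gave -0.93 (without heat-stressed library 2) to -1.95 (without heat-stressed library 1). Its 5p arm, miR-149-5p, was lowest in control 1, at 52.8, and had 137 in control 2 and 98.8 and 136 in heat-stressed libraries 1 and 2. The heat stress values of this arm lay between those of the control libraries. Its log2 change was 0.44 (standard error 0.946), and -0.24 without control 1.

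Mmu-miR-218-5p had values of 51.5 and 289 in controls 1 and 2 and of 35.6 and 10.01 in heat-stressed libraries 1 and 2, or 38, 370, 45 and 10 reads. Control 2 was high and the other 3 libraries were low, with control 1 just above heat-stressed library 1. The means differed by 7.48-fold, whereas the control libraries were 5.62-fold apart and the heat-stressed libraries 3.55-fold apart. In limma the log2 change was -2.62 (standard error 1.27), with an unadjusted p of 0.0942 and a Benjamini-Hochberg adjusted p of 0.686. Without control 2 it was -1.39, and without control 1 it was -3.86. In edgeR the miRNA ranked 2 of 313 with a Benjamini-Hochberg adjusted p of 0.0958, which was 0.957 without control 2 and 0.00614 without control 1. It can derive from Mir218-1, in an intron of Slit2, or Mir218-2, in an intron of Slit3, which encode axon guidance ligands.

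Summed over the 13 miRNAs, the normalized value was 1664 and 1387 in controls 1 and 2 and 1145 and 845 in heat-stressed libraries 1 and 2. As a share of all miRNA reads, this was 2.81% (95% Wilson interval 2.66 to 2.97) and 1.87% (1.78 to 1.95) in controls 1 and 2, and 1.44% (1.36 to 1.51) and 1.33% (1.25 to 1.42) in heat-stressed libraries 1 and 2. Such intervals cover counting error only. Both heat-stressed libraries lay below both control libraries. Mmu-miR-139-3p, mmu-miR-149-3p and mmu-miR-218-5p together, grouped because their heat stress values were low, had 601 and 553 in controls 1 and 2 and 126 and 83.1 in heat-stressed libraries 1 and 2. The other 10 together had 1062 and 834 in the control libraries and 1019 and 762 in the heat-stressed libraries. This split, which leaves mmu-miR-128-3p among the 10, follows from the choice and is a description only.

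With a filter of at least 10 reads in every library, 104 miRNAs and 6 of the brain-enriched ones were tested, and 3 of the 6 passed the threshold as lower with limma, against 4.81% of the 104, and 0 as higher, against 1.92%. They were mmu-miR-139-3p, mmu-miR-218-5p and mmu-miR-149-3p, with Benjamini-Hochberg adjusted p of 0.629, 0.629 and 0.729. Their log2 changes were those given above, and the standard errors were smaller, at 0.689, 0.979 and 0.587. This filter can remove a miRNA for being low in 1 group only, and the count of 3 is given as a description.

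MiR-9 is one of the hairpins whose arms are both active in neural cells. MiR-9-5p had a value of 122 in control 1, 0 in control 2 and 137.5 and 48.0 in heat-stressed libraries 1 and 2, or 90, 0, 174 and 48 reads. Control 2 was thus set apart from the other 3 libraries, of either group. The log2 change of 2.89 (standard error 2.41) rested on this 0, and it was -0.58 without control 2. A miRNA at 0 in control 2 with at least 10 reads in each of the other 3 libraries was seen in 4 of the 389 rows, and miR-9-5p, miR-27a-5p, miR-1306-5p and miR-1943-5p made up this set. The same count was 1 for control 1, 2 for heat-stressed library 1 and 0 for heat-stressed library 2. MiR-9-3p had 56.9 in control 1 and 4.74 in heat-stressed library 1, and was listed at 0 in the other 2 libraries. Its groups overlapped. The hairpins Mir9-1, Mir9-2 and Mir9-3 can each give these strands.

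The remaining neuronal miRNAs had few reads. MiR-124-3p, the most neuron-restricted of the 13, was at 4.06 in control 1 and 3.00 in heat-stressed library 2, which are 3 reads each, and at 0 in the other 2 libraries. MiR-138-5p was at 13.5, or 10 reads, in control 1 and at 0 in the other 3 libraries. Neither passed the threshold with all 4 libraries. The log2 change of miR-138-5p was -1.93 with all 4 libraries. It was -3.86 without control 2, with control 1 as the lone control library. Of the hairpins linked with oligodendrocytes, the arms known for that role, miR-219a-5p and miR-338-3p, had no row. The other arm miR-219a-1-3p was low and even, with 10.8 and 8.61 in controls 1 and 2 and 9.48 and 7.01 in heat-stressed libraries 1 and 2. MiR-219a-2-3p was at 0 in each control library and had 1.58 and 1.00 in heat-stressed libraries 1 and 2, or 2 and 1 reads. MiR-338-5p had 1 read, in heat-stressed library 1. The last pair of miRNAs did not reach the filter and were not tested.

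For miR-139, miR-149 and miR-9 both arms had a row and were tested, so the share of the 3p arm could be read within each library, where the scaling of the library cancels. Of the reads on miR-139, the 3p arm had 63.8% (95% Wilson interval 59.7 to 67.7) in control 1 and 48.2% (43.2 to 53.3) in control 2. In heat-stressed libraries 1 and 2 it had 12.0% (9.30 to 15.4) and 21.0% (16.3 to 26.7). The 3p arm was thus about level with the 5p arm or above it in the control libraries and the minor arm in both heat-stressed libraries. The libraries of a group also differed from each other by more than counting error. For miR-149 the 3p share was 58.1% (47.9 to 67.6) and 47.8% (42.5 to 53.1) in controls 1 and 2. It was 33.5% (27.2 to 40.5) and 15.0% (10.3 to 21.3) in heat-stressed libraries 1 and 2, again with the heat-stressed libraries below the control libraries. For miR-9 the 3p share was 31.8% (24.5 to 40.2) in control 1, 3.33% (1.54 to 7.08) in heat-stressed library 1 and 0 of 48 reads in heat-stressed library 2, for which the Wilson interval reached 7.41%. Both arms of miR-9 were at 0 in control 2, which has no share.

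**Figure D2:**
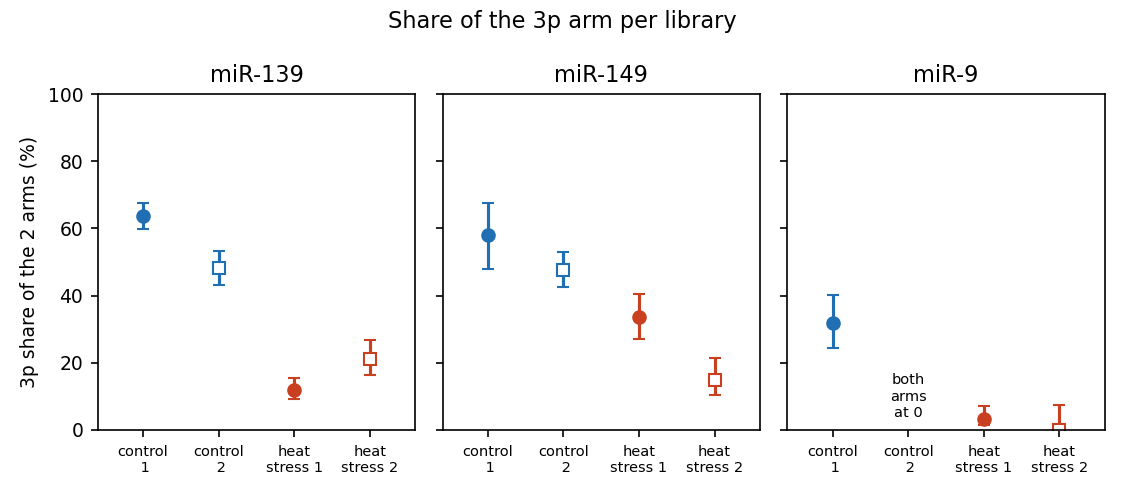
Share of the 3p arm in the reads of both arms of miR-139, miR-149 and miR-9, in percent on the vertical axis, for each of the 4 libraries on the horizontal axis. Blue marks are control libraries, red marks are heat-stressed libraries, and bars are 95% Wilson intervals, which cover counting error only. For miR-139 the control libraries sit at 63.8% and 48.2% and the heat-stressed libraries at 12.0% and 21.0%.

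The comparison of arms was chosen after the data had been seen. The log2 ratio of 3p to 5p, with 1 added to each value, was fitted over the 56 hairpins with both arms tested. Of these, 41 had a read on either arm in every library, miR-139 and miR-149 among them and miR-9 not. The ratio was lower in both heat-stressed libraries than in both control libraries in 3 of the 41 (7.32%), which included miR-139 and miR-149. It was 0.81 and -0.10 for miR-139 in controls 1 and 2 and -2.84 and -1.89 in heat-stressed libraries 1 and 2. The change was -2.72 (standard error 1.75, limma's Benjamini-Hochberg adjusted p = 0.816), which did not pass the threshold. The ratio of miR-149 was 0.46 and -0.13 in controls 1 and 2 and -0.97 and -2.45 in heat-stressed libraries 1 and 2, a change of -1.88 (standard error 1.76), which did not pass the threshold either, though it did among the 12 hairpins with at least 10 reads on both arms in every library, of which 2 (16.7%), miR-139 and miR-149, passed as lower. In that fit limma's Benjamini-Hochberg adjusted p was 0.195 for miR-149. With all 56 hairpins its change was -1.14 without heat-stressed library 2 and -2.62 without heat-stressed library 1. The ratio of miR-9 passed the threshold as lower (3.57% of the 56), with a change of -4.56 (standard error 1.76) and a Benjamini-Hochberg adjusted p of 0.427 in limma. Its ratio of 0 in control 2 came from the added 1 alone, and without that library the change was -4.02 and no longer passed, as was the case without heat-stressed library 2 (-4.05). Among the 12 hairpins with at least 10 reads on both arms in every library, miR-139 had a Benjamini-Hochberg adjusted p of 0.0379 in limma, the only one of the 12 under 0.05 (8.33%, lower). Over all settings tried for the miR-139 ratio, including those without 1 library, its adjusted p ran from 0.0379 to 1.00 in limma with Benjamini-Hochberg adjustment. With single libraries left out, the change of the miR-139 ratio ran from -3.20 (without heat-stressed library 2) to -2.24 (without heat-stressed library 1).

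The mature sequences below, taken from RefSeq for GRCm38.p6, belong to the miRNAs on which these differences turn, and are written 5′ to 3′ with the seed in capitals. In the RefSeq set 325 of the 389 listed miRNAs and 11 of the 13 brain-enriched ones were matched by name.
mmu-miR-128-3p: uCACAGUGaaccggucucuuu
mmu-miR-139-5p: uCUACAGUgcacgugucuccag
mmu-miR-139-3p: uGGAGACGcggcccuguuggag
mmu-miR-149-5p: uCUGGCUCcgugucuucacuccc
mmu-miR-149-3p: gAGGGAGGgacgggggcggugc
mmu-miR-218-5p: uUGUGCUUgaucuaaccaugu
mmu-miR-9-5p: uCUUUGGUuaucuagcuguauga
mmu-miR-9-3p: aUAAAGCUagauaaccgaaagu
The 11 matched miRNAs had 11 different seeds, so none of them shared its seed with another. The 4 miRNAs whose libraries did not overlap had no common base composition. G and C made up 81.8% of mmu-miR-149-3p, a share that 7 of the 325 reached, and 68.2% of mmu-miR-139-3p. They made up 47.6% of mmu-miR-128-3p and 38.1% of mmu-miR-218-5p, against a median of 50.0% over the 325.

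The hairpins of miR-139 and miR-149 are shown because their arms differed in the pattern over the libraries. Both arms are in capitals, with the 5p arm to the left. By GENCODE M21 for GRCm38, which may not be the build of the deposited table, Mir139 lies on the plus strand of chromosome 7 (101475376 to 101475443), in an intron of Pde2a and of the overlapping gene Gm45837. Mir149 lies on the plus strand of chromosome 1 (92850378 to 92850443), in an intron of Gpc1.
Mir139 hairpin: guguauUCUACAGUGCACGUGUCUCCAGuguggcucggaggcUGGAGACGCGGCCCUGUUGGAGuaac
Mir149 hairpin: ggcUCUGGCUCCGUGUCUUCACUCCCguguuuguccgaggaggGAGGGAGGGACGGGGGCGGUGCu
The remaining hairpins of these miRNAs lie on other chromosomes or far from these. Mir128-1 is on chromosome 1 (128202361 to 128202430) and Mir128-2 on chromosome 9 (112118636 to 112118711), Mir218-1 on chromosome 5 (48223942 to 48224051) and Mir218-2 on chromosome 11 (35616816 to 35616925).

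Among the 325 miRNAs matched to a sequence, 1 outside the brain-enriched set had the same seed as one of the 11 matched members. MiR-1943-5p has the seed of mmu-miR-149-3p, and had values of 42.0 and 0 in controls 1 and 2 and of 20.5 and 34.0 in heat-stressed libraries 1 and 2. Its groups overlapped, unlike those of mmu-miR-149-3p. The seed letters of mmu-miR-128-3p also occur in miR-27a-3p and miR-27b-3p, shifted by 1 base to positions 3 to 9, and are in capitals here for comparison.
mmu-miR-1943-5p: aAGGGAGGaucugggcaccugga
mmu-miR-27a-3p: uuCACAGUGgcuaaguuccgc
mmu-miR-27b-3p: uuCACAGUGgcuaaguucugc
MiR-27a-3p had 75.9 and 61.8 in controls 1 and 2 and 147 and 53.0 in heat-stressed libraries 1 and 2, and miR-27b-3p had 104 and 151, then 157 and 110. The groups overlapped for both.

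For each member tested, the 2 other miRNAs with the most similar pattern were taken by the smallest Euclidean distance of log2(value + 1), centred on the miRNA's own mean, over the 4 libraries. Mmu-miR-128-3p was closest to miR-423-3p (distance 0.171, with values of 597 and 677 in the control libraries and 522 and 487 in the heat-stressed libraries) and to miR-219a-1-3p (0.272). Mmu-miR-139-3p had no close neighbour. Its nearest were miR-5106 (1.18, with 14.9 and 7.82, then 0 and 2.00) and miR-210-3p (1.19), both at far lower values. Mmu-miR-149-3p was nearest to miR-5119 (0.710, with 32.5 and 81.4, then 15.8 and 12.0) and miR-30e-5p (0.717). Mmu-miR-218-5p was nearest to miR-5108 (0.768, with 4.06 and 21.9, then 0.790 and 0), which had the same high control 2, and to miR-877-3p (1.31). The 5p arms of miR-139 and miR-149 had closer neighbours than the 3p arms. MiR-139-5p was nearest to miR-99b-3p (0.291) and miR-361-3p (0.308), and miR-149-5p to miR-532-5p (0.335) and let-7i-5p (0.428). MiR-9-5p was nearest to miR-1306-5p (1.83) and miR-1943-5p (2.06), which were likewise at 0 in control 2. MiR-9-3p was nearest to miR-127-3p (1.55) and miR-3473h-5p (2.12). MiR-219a-1-3p was nearest to mmu-miR-128-3p (0.272) and miR-143-3p (0.280). The nearest of miR-124-3p were miR-3474 (0.535) and miR-28a-3p (0.669). Those of miR-138-5p were miR-299b-3p (0) and miR-216b-5p (0.122), and all 3 were above 0 in control 1 alone.

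Markers of other cell types were read beside these values. Of 7 hairpins abundant in cultured astrocytes, all had a row, and their 9 mature miRNAs summed to 3411 and 3119 in controls 1 and 2 and to 4063 and 4751 in heat-stressed libraries 1 and 2. The most abundant was miR-125b-5p (2134 and 1612, then 2402 and 3254). In each library the astrocyte list lay above the 13 brain-enriched miRNAs. None of its 9 members passed the threshold in either direction, and the median log2 change was 0.35. In 4 of the 9, both heat-stressed libraries lay above both controls, against 16.0% of all miRNAs tested. So did the sum of the list on the normalized scale, but as a share of all miRNA reads it was 5.77% and 4.20% in controls 1 and 2 and 5.09% and 7.49% in heat-stressed libraries 1 and 2, and the groups overlapped. The skeletal muscle list (miR-1a, miR-133a and miR-206, of which miR-133a had no row) summed to 39.3 and 108 in controls 1 and 2 and to 22.1 and 27.0 in heat-stressed libraries 1 and 2, with both heat-stressed libraries below both controls. In it miR-1a-3p passed the threshold as lower, with 24.4 and 73.5, then 3.16 and 0, and miR-206-3p did not. Limma's Benjamini-Hochberg adjusted p was 0.513 for miR-1a-3p. The endothelial list (miR-126a) summed to 2.71 and 0, then 33.2 and 8.01. In it miR-126a-3p passed the threshold as higher, with 2.71 and 0, then 32.4 and 8.01, and did not pass it in edgeR. For this miRNA limma's Benjamini-Hochberg adjusted p was 0.612, and the values of controls 1 and 2 stood for 2 and 0 reads. The microglia and white blood cell list (led by miR-142a-5p, with no row for miR-150) summed to 44.7 and 21.1, then 33.2 and 34.0. The red blood cell list, led by miR-486a-5p, summed to 951 and 582, then 793 and 578. The liver miRNA miR-122-5p was at 90.8 and 33.6, then 20.5 and 76.1. In the last 3 lists the groups overlapped and no miRNA passed the threshold in either direction. The paper's methods state culture in medium with fetal bovine serum and mention no removal of vesicles from it. The parts of serum and of other cell types in these values and in those of the brain-enriched miRNAs were not tested.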

How the data were processed

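Small RNA of exosome-enriched preparations was sequenced from 2 control and 2 heat stress cultures of C8-D1A cells. The submitters' processing notes name FastQC and BWA, the paper's methods name Bowtie, and the genome build and miRNA release are not given in the sources used here. The authors deposited 1 normalized signal per miRNA and library, and all nonzero values (100%, tolerance 0.01) were whole multiples of 1 step per library, whose inverse (0.738, 1.28, 1.27 and 0.999) equalled the median-of-ratios size factor. The authors also deposited their own log2 fold change and p-value columns, which were not used. The members and lists were chosen with earlier results of these data known. Limma 3.58.1 (R 4.3.3) was fitted to log2(value + 1) of 313 miRNAs (filter: mean value 1 or more). The model held the condition alone, and p-values were adjusted by Benjamini-Hochberg over the 313. Fold changes on this scale understate the change of low miRNAs. edgeR 4.0.16 and DESeq2 1.42.0 were run as added alternatives on the multiples. A stricter criterion for recovered reads was met in control 1 and heat-stressed library 1 only, since control 2 had too few low values for it and the step of heat-stressed library 2 is close to 1. Named miRNAs were all members, rows sharing a member's seed, up to 3 per outside list that passed the threshold or had the highest mean, and 2 nearest patterns per member, and other named miRNAs were chosen after their values were seen. The fits were tested on simulated data. Alternatives were other pseudocounts, filters, scalings, limma-trend, a replicate block, other thresholds and leaving out each library. Figures were drawn with matplotlib 3.10.9.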

Additional observations from a re-analysis of the deposited data

How the results depend on the processing

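In every planned setting with all 4 libraries each tested brain-enriched miRNA kept the direction of its log2 change. The number of them past the threshold was 0 in the main setting, with a pseudocount of 0.1, with library totals (with or without the 5 most abundant miRNAs) and with log2(CPM + 1). With a pseudocount of 5, 2 were lower (4.15% of all tested), with no filter 1 was lower (2.57%), with mean values of 10 or more 1 was lower (5.03%) and where every library needed 10 reads or more 3 were lower (4.81%). In edgeR, added after seeing the data, 2 were lower (3.19%). With more than 2-fold and non-overlap in place of a p, 3 were lower (9.27%). In these settings 0 were higher. With limma-trend, in which the variance prior depends on the mean, 3 passed, of which miR-139-3p and miR-218-5p were lower (3.19%) and miR-9-5p was higher (1.92%). Among the settings above, all with 4 libraries, miR-139-3p passed as lower in each in which any brain-enriched miRNA did.

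Over all miRNAs, 14 were higher and 9 lower. There were 14 higher and 2 lower with a pseudocount of 0.1, 11 and 13 with a pseudocount of 5, 14 and 3 with log2(CPM + 1), 16 and 10 with no filter, 2 and 5 where every library needed 10 reads or more, 6 and 8 with mean values of 10 or more, 6 and 10 with limma-trend, 6 and 10 in edgeR, and 31 and 29 by non-overlap together with more than 2-fold. With Benjamini-Hochberg adjusted p under 0.05 in limma there were 0 higher and 0 lower, but 35 miRNAs passed without heat-stressed library 1 and 35 without heat-stressed library 2, with 0 brain-enriched ones among them. Library totals moved the median log2 change of all miRNAs from 0.12 to 0.02 and that of the brain-enriched ones from -0.34 to -0.44. The latter median was -0.22 with no filter and -0.89 where every library needed 10 reads or the mean value 10, with fewer miRNAs tested.

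With the replicate block there were 10 higher, 4 lower and 0 brain-enriched miRNAs past the threshold. Libraries with the same number deviated from their group means with a correlation of -0.0189, and the number is not taken as a pairing.

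With each library left out in turn, the lone library being assumed to vary like the others, there were 10 to 39 higher, 3 to 27 lower and 0 to 2 brain-enriched miRNAs past the threshold. The members concerned were miR-139-3p (log2 change -1.60) and miR-9-5p (6.37) without control 1. Without control 2 they were miR-139-3p (-3.38) and miR-138-5p (-3.86). Both fits rest on a lone control library, and in both more of all miRNAs were past the threshold as lower than in the main setting. Without control 1 more were also past it as higher. Whether these member calls stand out from those of all miRNAs cannot be decided with a lone control library, and no conclusion is drawn from them. The median of the brain-enriched log2 changes ran from -1.06 to -0.07. The log2 change ran from -0.58 to 6.37 for miR-9-5p, from -4.595 to 1.26 for miR-9-3p, from -1.34 to 1.00 for miR-124-3p, from -0.20 to 0.66 for miR-139-5p and from -0.24 to 1.12 for miR-149-5p, so that each of these 5 changed direction. It kept its direction in miR-139-3p (-3.38 to -1.60), miR-218-5p (-3.86 to -1.39) and miR-149-3p (-1.95 to -0.93). So did the small changes of miR-128-3p (-0.48 to -0.20) and miR-219a-1-3p (-0.41 to -0.02). The log2 change of miR-138-5p was 0 without control 1. The cause was not tested. Low counts limit the precision of the low members, as 10 reads or fewer lay behind each value of miR-124-3p and miR-138-5p.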

Other observations

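Of 41 other hairpins linked with brain tissue in general knowledge, 15 had a row, with 16 mature miRNAs, and 11 of these were tested. None of the 11 passed the threshold in either direction with limma or edgeR, and the median log2 change was -0.33. The most abundant, miR-7a-5p, which is strongly expressed in neurons and neuroendocrine cells, had values of 740 and 504 in controls 1 and 2 and of 226 and 430 in heat-stressed libraries 1 and 2. It was the only one of the 11 in which both heat-stressed libraries lay below both control libraries, a count of 1 beside 11.5% of all miRNAs tested, and its log2 change was -0.97 (standard error 0.898, limma's Benjamini-Hochberg adjusted p = 0.686). MiR-708-3p had 56.9 and 162, then 104 and 56.1, and miR-29a-3p, which is also in the astrocyte list, had 48.8 and 24.3, then 25.3 and 36.0. Their groups overlapped. Summed over the 16, the list had 947 and 730 in controls 1 and 2 and 432 and 561 in heat-stressed libraries 1 and 2, mostly from miR-7a-5p. In 26 of the 41 hairpins no arm had a row, and 6 to 8 of the 16 miRNAs were at 0 in each library.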
